A study of Mus musculus with 48 samples.

Results

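The Dlk1-Dio3 domain is an imprinted region of distal mouse chromosome 12 that holds many microRNA (miRNA) genes. The miRNAs described here are those whose array name carries 1 of the family numbers assigned to the domain, any letter or strand, which gave 88 of the 1023 mouse miRNAs on the array. The 88 names belong to 45 hairpins, and RefSeq placed all of them on the plus strand of chr12:109563692-109743795 (GRCm38.p6), over 180.1 kb. Another 19 miRNAs of the same domain were outside the list of numbers, among them miR-493, miR-544 and miR-3072, and were described beside them. Total RNA from male mice was hybridized to 24 miRNA arrays and 24 mRNA arrays of 1 colour, with 8 groups of 3 samples for each assay. The groups were WT mice of strain C57BL/6J and Tg2576 mice of strain Tg(APPSWE)2576Kha, at 10 and 17 months of age, with brain cortex or whole brain as the tissue. Tg2576 mice carry human APP with the Swedish mutation under the hamster prion protein promoter and are a model of amyloid accumulation. The genotypes were compared in each tissue and age, and ages and tissues within each genotype. The labels number the samples of a group and do not tie them to single mice, so p-values measure only the spread between these samples.

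In the domain, the protein-coding genes Dlk1, Rtl1 and Dio3 are expressed from the paternal chromosome, and the long non-coding RNAs Meg3, Rian and Mirg from the maternal one. The miRNAs lie in and between these maternal transcripts, and one precursor hairpin can give a miRNA from each of its arms. They are abundant in the brain, where miR-134 and others are known for roles in dendrite growth and synapse size. A miRNA recognizes its targets mainly through its seed, bases 2 to 8 from the 5′ end.

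The mature sequences of the members on which the results turn are given below from RefSeq (GRCm38.p6), 5′ to 3′, with the seed in capitals. They are the hairpins of the 5 members with a difference past the test's threshold, of miR-494, whose level varied most, of miR-434-3p and miR-127, whose array signals are described in full, and of miR-410, whose 5′ arm shares its seed with that of miR-494. The arrays used the older naming, in which a name without suffix or with a star does not tell the arm, and 27 of the 88 names stood in the RefSeq table as written, so both arms are shown.
mmu-miR-541-5p: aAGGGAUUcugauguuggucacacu
mmu-miR-541-3p: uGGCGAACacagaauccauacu
mmu-miR-154-5p: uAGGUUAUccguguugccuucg
mmu-miR-154-3p: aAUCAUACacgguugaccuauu
mmu-miR-299a-5p: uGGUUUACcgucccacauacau
mmu-miR-299a-3p: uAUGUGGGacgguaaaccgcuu
mmu-miR-411-5p: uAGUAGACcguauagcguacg
mmu-miR-411-3p: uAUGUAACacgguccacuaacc
mmu-miR-376b-5p: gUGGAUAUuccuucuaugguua
mmu-miR-376b-3p: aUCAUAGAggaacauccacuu
mmu-miR-494-5p: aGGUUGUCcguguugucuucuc
mmu-miR-494-3p: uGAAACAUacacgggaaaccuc
mmu-miR-434-5p: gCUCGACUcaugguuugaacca
mmu-miR-434-3p: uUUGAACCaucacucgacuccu
mmu-miR-127-5p: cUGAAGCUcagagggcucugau
mmu-miR-127-3p: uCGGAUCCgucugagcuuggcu
mmu-miR-410-5p: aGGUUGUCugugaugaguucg
mmu-miR-410-3p: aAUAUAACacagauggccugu

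The hairpins of miR-127 (chr12:109592846-109592915) and miR-434 (chr12:109594506-109594599) lay in the stretch of Meg3 and Rtl1. Those of miR-411 (chr12:109710175-109710256), miR-299 (chr12:109710638-109710700), miR-494 (chr12:109715318-109715402) and miR-376b (chr12:109723458-109723539) lay between Rian and Mirg. Those of miR-154 (chr12:109738433-109738498), miR-541 (chr12:109742409-109742498) and miR-410 (chr12:109743715-109743795) lay in Mirg. Among the 84 mature sequences that RefSeq lists for the 45 hairpins, 78 different seeds occurred, and 6 seeds were held by 2 sequences each. These pairs were miR-410-5p with miR-494-5p (seed GGUUGUC), miR-379-3p with miR-411-3p (AUGUAAC), miR-376b-5p with miR-376c-5p (UGGAUAU), miR-379-5p with miR-1193-5p (GGUAGAC), miR-370-5p with miR-1193-3p (AGGUCAC) and miR-496a-5p with miR-453 (GGUUGCC).

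A miRNA was counted as detected on an array when more than 50% of the spots of at least 1 of its probes were well above background. Of the 88 members, 45 (51.1%) were detected on all 24 arrays, 12 on some and 31 (35.2%) on none. Of the 935 mouse miRNAs outside the number list, 184 (19.7%) were detected on all arrays and 604 (64.6%) on none. The members were listed by position in 4 stretches, and detection on all arrays ran through each of them, with 11 of 18 members in the stretch of Meg3 and Rtl1, 2 of 4 in Rian, 23 of 49 between Rian and Mirg and 9 of 17 in Mirg. At least 1 member was detected on all arrays for 33 of the 45 hairpins. Of the 43 hairpins with 2 members, both were detected on all arrays for 12, exactly 1 for 21 and neither for 10. Of the 30 members with a starred name, 10 were detected on all arrays. The other miRNAs of the domain were mostly dim, since 17 of 19 were detected on no array. Those detected were miR-3072* (all 24 arrays, mean level -4.58 on the log2 scale described below) and miR-544-5p (22 arrays). The mean level of miR-544-5p was -5.63, near the lowest value given to any miRNA.

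Across the groups, the number of members detected on at least 2 of 3 arrays was 50 in the cortex of 10-month-old WT mice, 47 in that of 10-month-old Tg2576 mice and 45 in that of 17-month-old mice of either genotype. In whole brain it was 48 in 10-month-old WT mice, 57 in 10-month-old Tg2576 mice, 51 in 17-month-old WT mice and 52 in 17-month-old Tg2576 mice. These counts moved with the brightness of the arrays, taken as the 75th percentile of the processed signal over 402 probes that were well above background on every array. Brightness ranged from 351.1 to 425.7 in the cortex of 17-month-old WT mice, where each array held 45 detected members. The only 2 arrays with 57 detected members were Tg2576 whole brain replicates 2 and 3 at 10 months, with a brightness of 1532 and 1604, whereas replicate 1 of that group had a brightness of 494.5 and 45 detected members. Differences in detection between groups could therefore not be told apart from differences in brightness.

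**Figure D1:**
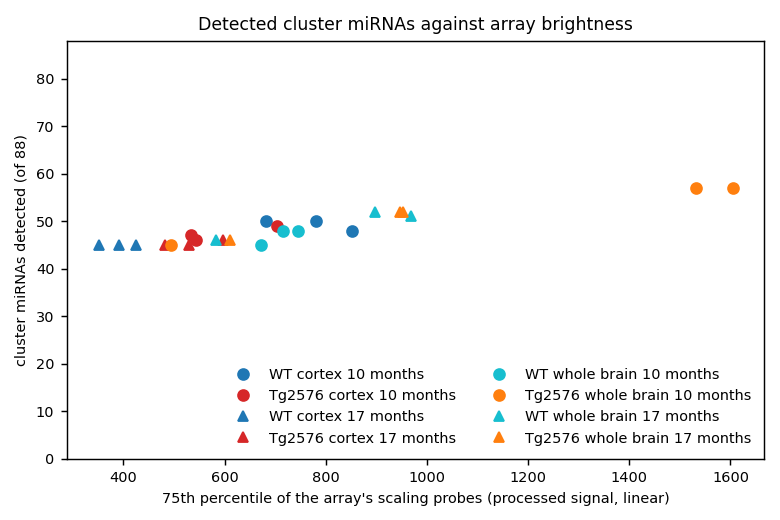
Number of the 88 cluster miRNAs detected on each of the 24 miRNA arrays (vertical axis) against the brightness of the array (horizontal axis, 75th percentile of the linear processed signal over 402 probes), 1 point per array, coloured by genotype and tissue, with circles for 10 months and triangles for 17 months. The counts lie between 45 and 57, and the 2 brightest arrays, both of 10-month-old Tg2576 whole brain, have 57.

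The 12 members detected on some arrays were dim, and 11 of them had a level at the floor, the lowest value given to any miRNA, on every array. The exception was miR-369-3p, detected on 11 arrays. miR-127*, miR-299, miR-540-3p, miR-541* and miR-665 were detected on 2 arrays each, the 2 brightest ones. miR-134, which is known to limit dendritic spine size by repressing Limk1, was detected on no cortex array and on 5 whole brain arrays, 2 of 3 in each Tg2576 group, 1 of 3 in 17-month-old WT mice and 0 of 3 in 10-month-old WT mice. miR-666-3p was detected on 6 whole brain arrays, miR-431* on 8 arrays, miR-667 on 11, miR-539-5p on 13 and miR-485* on 16. The highest brightness was 1604 and 952.5 in Tg2576 whole brain at 10 and 17 months and 969.4 in 17-month-old WT whole brain. It was 744.8 in 10-month-old WT whole brain and at most 851.8 in cortex. For miR-134 and miR-666-3p, tissue and genotype therefore cannot be told apart from brightness. miR-431*, miR-539-5p, miR-667, miR-485* and miR-369-3p were each detected on 0 of the 3 dimmest arrays, those of 17-month-old WT cortex. Because their levels were at or near the floor, no fold difference is given for these members.

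Levels were given as the log2 of the mean processed signal over the probes of a miRNA after division by the brightness of the array, so that 0 is a signal equal to that 75th percentile, and lower values were set to a floor of -5.67. A level depends on the probes of each miRNA, so a level is compared between groups, and its order among the miRNAs is no order of abundance. Of the 45 members detected on all arrays, 6 had a mean above 0, namely miR-434-3p (1.35), miR-127 (1.03), miR-300 (0.67), miR-136 (0.64), miR-376a (0.40) and miR-410 (0.34). Further means were -0.24 for miR-154, -0.93 for miR-495, -0.99 for miR-382 and -0.999 for miR-379. miR-770-3p was detected through 1 of its 4 probes and its mean level stood at the floor on all arrays, which left 44 members with a level to compare.

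Among these members the spread between groups differed, and it was smallest for miR-434-3p. For miR-434-3p the 3 arrays of a group read 1.42, 1.41 and 1.36 in 10-month-old WT cortex, 1.26, 1.43 and 1.26 in 10-month-old Tg2576 cortex, 1.49, 1.43 and 1.28 in 17-month-old WT cortex and 1.30, 1.70 and 1.27 in 17-month-old Tg2576 cortex. In whole brain it read 1.24, 1.24 and 1.41 in 10-month-old WT mice, 1.31, 1.35 and 1.23 in 10-month-old Tg2576 mice, 1.45, 1.28 and 1.22 in 17-month-old WT mice and 1.33, 1.57 and 1.24 in 17-month-old Tg2576 mice. The groups overlapped, except that 10-month-old WT cortex lay above 10-month-old Tg2576 whole brain, and the range of the 8 group means, 0.13, was no larger than the SD within groups, 0.13. miR-127, which is transcribed antisense to Rtl1 and is known to repress it, read 1.06, 0.93 and 0.61 in 10-month-old WT cortex, 0.99, 1.03 and 0.96 in 10-month-old Tg2576 cortex, 1.07, 1.14 and 0.89 in 17-month-old WT cortex and 0.98, 1.13 and 0.97 in 17-month-old Tg2576 cortex. In whole brain it read 0.95, 1.08 and 0.99 in 10-month-old WT mice, 1.12, 1.03 and 1.17 in 10-month-old Tg2576 mice, 1.19, 0.86 and 1.15 in 17-month-old WT mice and 1.24, 1.16 and 1.10 in 17-month-old Tg2576 mice. Its group means ranged over 0.30, with an SD within groups of 0.13. Among the other members named above, the range of the group means was 0.16 for miR-154, 0.22 for miR-300, 0.27 for miR-410, 0.29 for miR-379, 0.35 for miR-376a and for miR-495, 0.42 for miR-382 and 0.44 for miR-136.

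**Figure D2:**
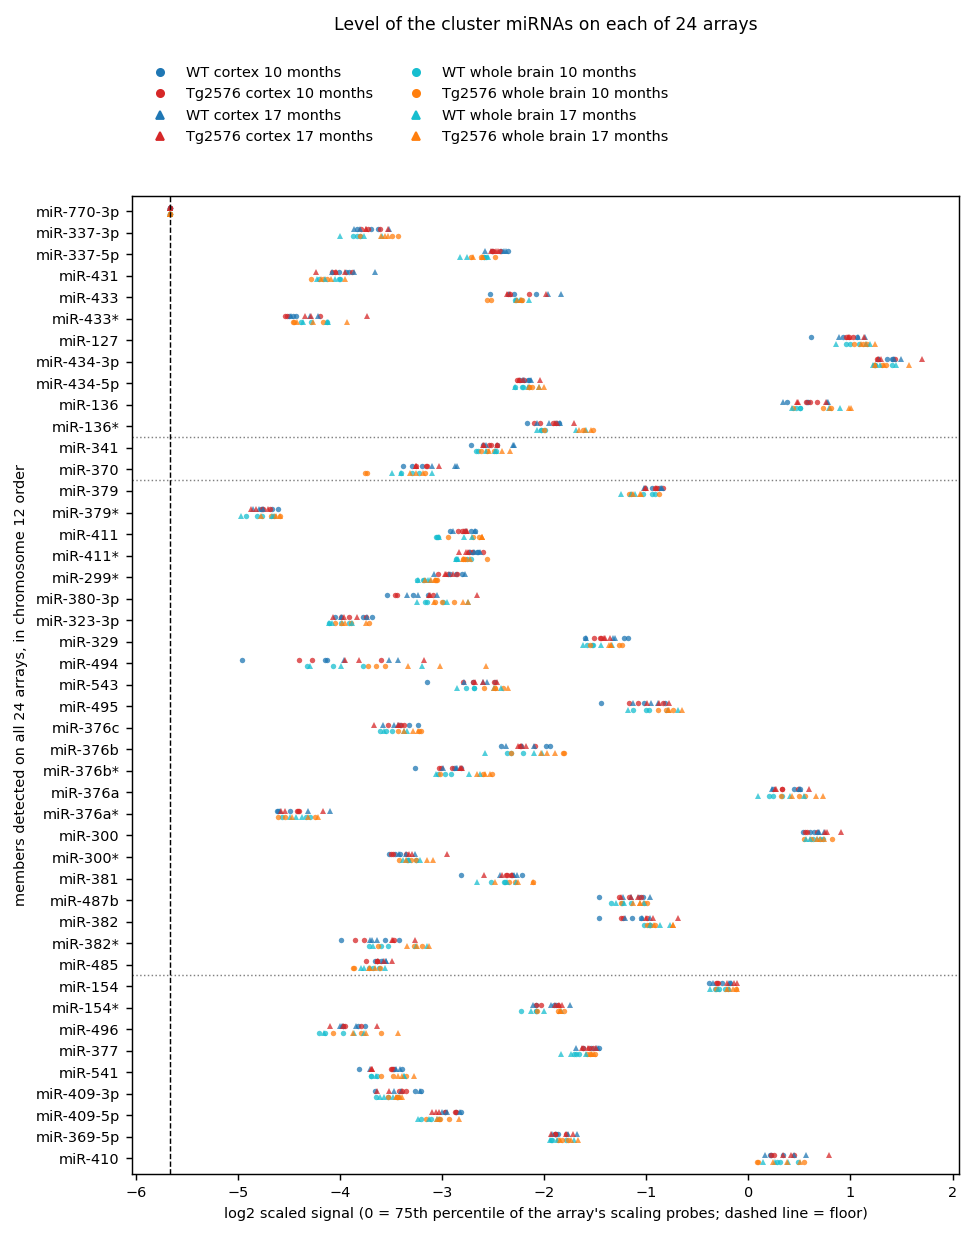
Level of the 45 cluster miRNAs detected on all 24 arrays (rows, in chromosome order, dotted lines between the 4 stretches of the domain) on each miRNA array (horizontal axis, log2 scaled signal, 0 is the 75th percentile of the array's scaling probes), with cortex in the upper line of points and whole brain in the lower line of each row. Most rows span well under 1 unit, miR-494 spans 2.38 units, and miR-770-3p lies on the floor (dashed line).

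Over the 45 members detected on all arrays, the median range of the 8 group means was 0.28, between 0 and 1.43, and the median SD within groups was 0.13. For the 183 mouse miRNAs detected on all arrays outside the domain the median range was 0.27, up to 2.38. A range under 0.4 was found for 35 of the 45 members and for 123 of those 183 miRNAs, and a range over 0.5 for 2 members, miR-494 and miR-370 (0.61), and for 39 of the 183. The mean over the members lay between -2.42 in 10-month-old WT whole brain and -2.23 in 17-month-old Tg2576 whole brain. As a share of the summed signal of all mouse miRNAs, the members made up 4.17% to 5.77% per array. With other scalings the median range of the members was larger, 0.70 with the 75th percentile taken over all probes and 0.44 with normexp background correction, and that of the miRNAs outside the domain was larger as well, 0.71 and 0.43.

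miR-494 had the 4th largest range of group means among the 229 mouse miRNAs detected on all arrays, after miR-451, miR-690 and miR-3473. Its levels were -4.14, -4.13 and -4.96 in 10-month-old WT cortex, -4.27, -4.40 and -3.60 in 10-month-old Tg2576 cortex, -3.52, -3.97 and -3.43 in 17-month-old WT cortex and -3.82, -3.18 and -3.96 in 17-month-old Tg2576 cortex. In whole brain they were -3.78, -4.07 and -4.32 in 10-month-old WT mice, -3.72, -3.56 and -3.65 in 10-month-old Tg2576 mice, -3.20, -4.30 and -3.99 in 17-month-old WT mice and -3.03, -2.58 and -3.33 in 17-month-old Tg2576 mice. The lowest group was 10-month-old WT cortex and the highest 17-month-old Tg2576 whole brain, but arrays within a group lay far apart (SD within groups, 0.39). Its largest difference was between the genotypes in 17-month-old whole brain, 0.85 ± 0.38 (SE, n = 3 per group, limma adjusted p = 0.74), and it passed the threshold in none of the 12 comparisons of 2 groups.

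Over the 8 group means, the miRNAs outside the domain whose level followed the mean of the members most closely were miR-148b (Pearson r = 0.90), miR-29b (r = 0.86) and miR-365 (r = 0.83). These values are descriptive, since the 8 points share their arrays and scaling.

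The genotypes were compared in each tissue and age by limma with Benjamini-Hochberg adjustment over all mouse miRNAs detected on at least 2 arrays of either group, at an adjusted p of 0.05. Tg2576 and WT mice differed in none of the members tested, 50 in the cortex at 10 months, 45 in the cortex at 17 months, 57 in whole brain at 10 months and 52 in whole brain at 17 months. These counts include members at the floor on all arrays compared, which could not pass. The share of all miRNAs called was also 0% in each of the 4 comparisons. Shares of all miRNAs called, or with an unadjusted p under 0.05, include miRNAs at the floor as well, here and in the later comparisons. At an unadjusted limma p under 0.05 the members numbered 1, 1, 9 and 3 in the same order, beside 7.94%, 16.2%, 5.43% and 6.82% of all miRNAs, and by the methods' t-test 1, 1, 8 and 2, with 0 after adjustment. The median difference of the 44 members, Tg2576 minus WT, was -0.01 in the cortex at 10 months and 0.00 at 17 months, beside 0.02 and -0.01 for all miRNAs with a level. In whole brain it was 0.12 at 10 months and 0.11 at 17 months, beside 0.02 and 0.07.

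In the cortex, the lowest unadjusted p belonged at 10 months to miR-376a* (difference 0.16 ± 0.04, SE, limma adjusted p = 0.41) and miR-434-5p (-0.06 ± 0.03, adjusted p = 0.83), and at 17 months to miR-382* (0.26 ± 0.07, adjusted p = 0.20) and miR-411* (-0.10 ± 0.04, adjusted p = 0.30). The groups of 3 arrays did not overlap for 1 of 44 members at 10 months and for 5 of 44 at 17 months. Of all miRNAs with a level it was 36 of 263 (13.7%) and 56 of 242 (23.1%). The 95% intervals of the difference lay within 1.5-fold in either direction for 41 of 44 members at 10 months and for 40 at 17 months. At 17 months, WT replicates 1 and 2 lay on another slide than the Tg2576 arrays, so genotype and slide are only partly separable there.

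In whole brain, 33 of the 44 members were higher in 10-month-old Tg2576 mice than in WT mice and 42 of 44 in 17-month-old mice, beside 152 of 267 and 202 of 269 of all miRNAs with a level. The groups did not overlap for 12 of 44 members at 10 months, beside 38 of 267 of all miRNAs (14.2%), and for 5 of 44 at 17 months, beside 32 of 269 (11.9%). At 10 months the lowest p belonged to miR-299* (0.14 ± 0.02, SE, limma adjusted p = 0.26) and miR-377 (0.14 ± 0.03, adjusted p = 0.59). At 17 months it belonged to miR-411* (0.08 ± 0.02, adjusted p = 0.68) and miR-409-3p (0.13 ± 0.04, adjusted p = 0.68). Without Tg2576 replicate 1, the dimmest array of its group and the only one on the slide of the WT arrays, 10 of 57 members passed the threshold at 10 months, 9 of them higher in Tg2576 mice, beside 26 of all 368 miRNAs (7.07%). The remaining 2 Tg2576 arrays were the 2 brightest of all and lay on another slide than the WT arrays, so that genotype, slide and brightness cannot be told apart in that count. An interaction of genotype with age was fitted to the arrays of each tissue, and 0 of 50 members in the cortex and 0 of 57 in whole brain passed, as did 0% of all miRNAs tested in each (limma, 1 and 0 members at an unadjusted p under 0.05).

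**Figure D3:**
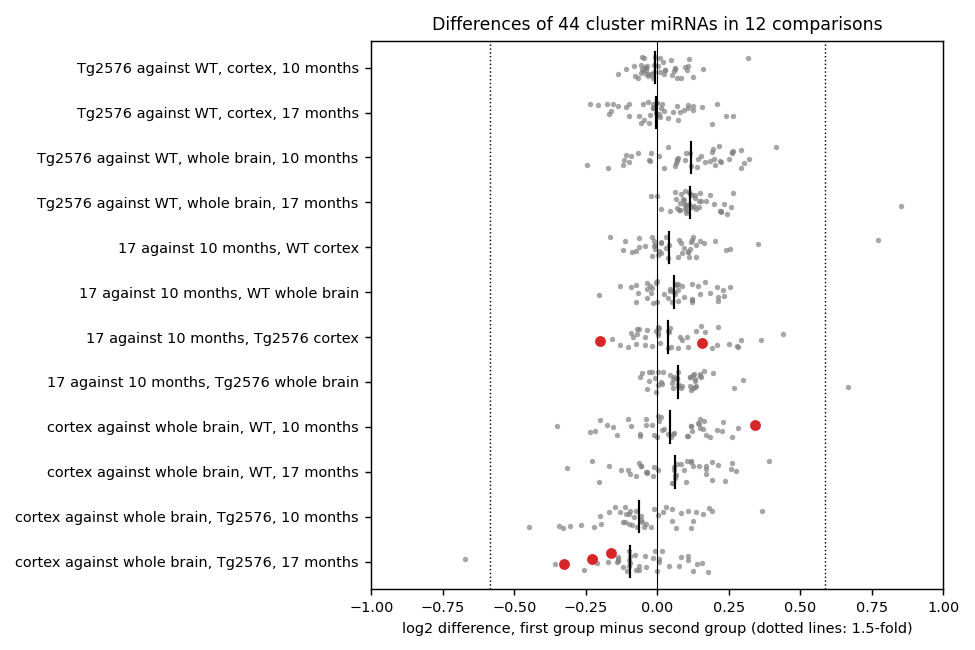
Difference of the 44 cluster miRNAs with a level in the 12 comparisons of 2 groups (rows), as log2 of the first over the second group (horizontal axis), 1 point per miRNA, vertical bars for the medians and red points for differences past an adjusted limma p of 0.05. The 6 red points lie between -0.33 and 0.34, inside the dotted lines of a 1.5-fold difference, and the points beyond those lines are of miR-494.

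Between 10 and 17 months, 2 members changed in the cortex of Tg2576 mice and none in the other 3 comparisons of age. Of 47 members tested in Tg2576 cortex, miR-541 fell and miR-154 rose. These 2 made up 4.26% of the members tested, no more than the share of all mouse miRNAs called (20 of 287, 6.97%). miR-541 read -3.51, -3.49 and -3.48 at 10 months and -3.69, -3.70 and -3.69 at 17 months. The arrays of the 2 ages did not overlap, and the difference was -0.20 ± 0.009 (SE, n = 3 per age, limma adjusted p = 0.0022), or 0.87-fold. miR-154, a member that gave its name to a family of related miRNAs of the domain, read -0.31, -0.30 and -0.32 at 10 months and -0.11, -0.21 and -0.14 at 17 months. Its difference was 0.16 ± 0.03 (SE, limma adjusted p = 0.0493), or 1.11-fold. For 10 of the 44 members the 2 ages did not overlap, beside 34.6% of all miRNAs. The 2 ages lay on different slides, so age and slide cannot be told apart for either miRNA.

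These 2 changes were small. When the 75th percentile was taken over all probes, the median of all miRNAs moved to 0.42, and the differences relative to that median were -0.17 for miR-541 and 0.19 for miR-154. With normexp they were -0.07 and 0.07 relative to a median of 0.08. Neither miRNA passed the threshold with either setting, where the test is of the difference from 0. Without 1 array, the difference of miR-154 stayed between 0.13 and 0.18, but its call was lost in 5 of 6 fits, all but that without replicate 2 at 17 months (limma adjusted p from 0.019 to 0.15).

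Of the members tested in the other age comparisons, 0 of 50 passed in WT cortex (3 at an unadjusted limma p under 0.05, 3 by the methods' t-test), 0 of 51 in WT whole brain (1 and 1) and 0 of 57 in Tg2576 whole brain (1 and 1). Of all miRNAs, 0%, 0.901% and 0.272% were called, and 7.42%, 9.91% and 5.71% had an unadjusted limma p under 0.05. The median difference of the 44 members, 17 minus 10 months, was 0.04 in WT cortex, 0.06 in WT whole brain, 0.04 in Tg2576 cortex and 0.07 in Tg2576 whole brain, beside 0.01, 0.01, 0.00 and 0.05 for all miRNAs with a level. The 2 ages did not overlap for 5 members in WT cortex (12% of all miRNAs), 3 in WT whole brain (15.4%) and 2 in Tg2576 whole brain (10.4%). In WT cortex the lowest p belonged to miR-370 (0.35 ± 0.09, SE, limma adjusted p = 0.38) and miR-485 (0.07 ± 0.02, adjusted p = 0.52). In WT whole brain it belonged to miR-379 (-0.21 ± 0.05, adjusted p = 0.33) and miR-541 (0.21 ± 0.09, adjusted p = 0.58). In Tg2576 whole brain it belonged to miR-494 (0.67 ± 0.22, adjusted p = 0.68) and miR-382 (0.16 ± 0.06, adjusted p = 0.89). Without replicate 2 of 17-month-old WT whole brain, 1 of the 2 arrays on the 4th slide, 6 of 51 members passed in WT whole brain, beside 18 of all 332 miRNAs (5.42%). With or without that array, no slide held WT whole brain arrays of both ages, so age and slide cannot be told apart there.

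Cortex and whole brain differed in 1 member in 10-month-old WT mice and in 3 members in 17-month-old Tg2576 mice, 2% and 5.77% of the members tested, which is near the share of all miRNAs called (3.16% and 5.18%). In 10-month-old WT mice, miR-299* was higher in cortex, with levels of -2.92, -2.80 and -2.87 beside -3.25, -3.18 and -3.19 in whole brain. The tissues did not overlap, and the difference was 0.34 ± 0.04 (SE, n = 3 per tissue, limma adjusted p = 0.032), or 1.27-fold. No slide held arrays of both tissues, and with the slide as a random block the difference was 0.34 with an adjusted p of 0.99. Without 1 array it stayed between 0.31 and 0.37 and missed the threshold in each of the 6 fits (limma adjusted p from 0.056 to 0.13). Its level in cortex ranged from -3.08 to -2.78 over the 12 arrays and in whole brain from -3.25 to -3.05. For 11 of the 44 members the tissues did not overlap in 10-month-old WT mice, beside 26.3% of all miRNAs.

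In 17-month-old Tg2576 mice, miR-411, miR-541 and miR-376b* were lower in cortex than in whole brain. miR-411 read -2.77, -2.76 and -2.79 in cortex and -2.61, -2.61 and -2.61 in whole brain, a difference of -0.16 ± 0.008 (SE, limma adjusted p = 0.0048), or 0.89-fold. miR-541 read -3.69, -3.70 and -3.69 in cortex and -3.27, -3.43 and -3.39 in whole brain, a difference of -0.33 ± 0.05 (SE, limma adjusted p = 0.038), or 0.80-fold. miR-376b* read -2.82, -2.81 and -2.82 in cortex and -2.53, -2.58 and -2.66 in whole brain, a difference of -0.23 ± 0.04 (SE, limma adjusted p = 0.043), or 0.85-fold. The tissues did not overlap for 12 of the 44 members, these 3 among them, beside 35% of all miRNAs. They lay on different slides, so tissue and slide cannot be told apart here. When the scaling was taken over all probes, the median of all miRNAs moved to 0.55, and relative to it the differences were -0.03 for miR-411, -0.19 for miR-541 and -0.09 for miR-376b*. With normexp they were -0.08, -0.05 and -0.11 relative to a median of 0.16. The calls of miR-541 and miR-376b* were each lost without any 1 of 4 of the 6 arrays, while their differences stayed between -0.36 and -0.28 and between -0.26 and -0.20.

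In 17-month-old WT mice 0 of 51 members and 0% of all miRNAs passed between the tissues (5 members at an unadjusted limma p under 0.05, 3 by the methods' t-test), and in 10-month-old Tg2576 mice 0 of 57 members and 0.27% of all miRNAs (4 and 1). Of all miRNAs, 15.1% and 9.19% had an unadjusted limma p under 0.05 in these comparisons. The lowest p belonged in the former to miR-411* (0.17 ± 0.03, SE, limma adjusted p = 0.11) and miR-379 (0.26 ± 0.07, adjusted p = 0.22), and in the latter to miR-434-5p (-0.10 ± 0.02, adjusted p = 0.28) and miR-379* (-0.10 ± 0.04, adjusted p = 0.51). The tissues did not overlap for 7 of 44 members in each, beside 23.2% and 19.9% of all miRNAs. In neither comparison did a slide hold arrays of both tissues, so tissue and slide cannot be told apart there. The median difference of the members, cortex minus whole brain, was 0.04 and 0.06 in WT mice of 10 and 17 months and -0.06 and -0.09 in Tg2576 mice, beside -0.02, 0.00, -0.02 and -0.08 for all miRNAs with a level. An interaction of tissue with age was called for 0 of 51 members in WT mice (0% of all miRNAs) and for 0 of 57 in Tg2576 mice (1.08% of all), with 4 and 3 members at an unadjusted limma p under 0.05.

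**Figure D4:**
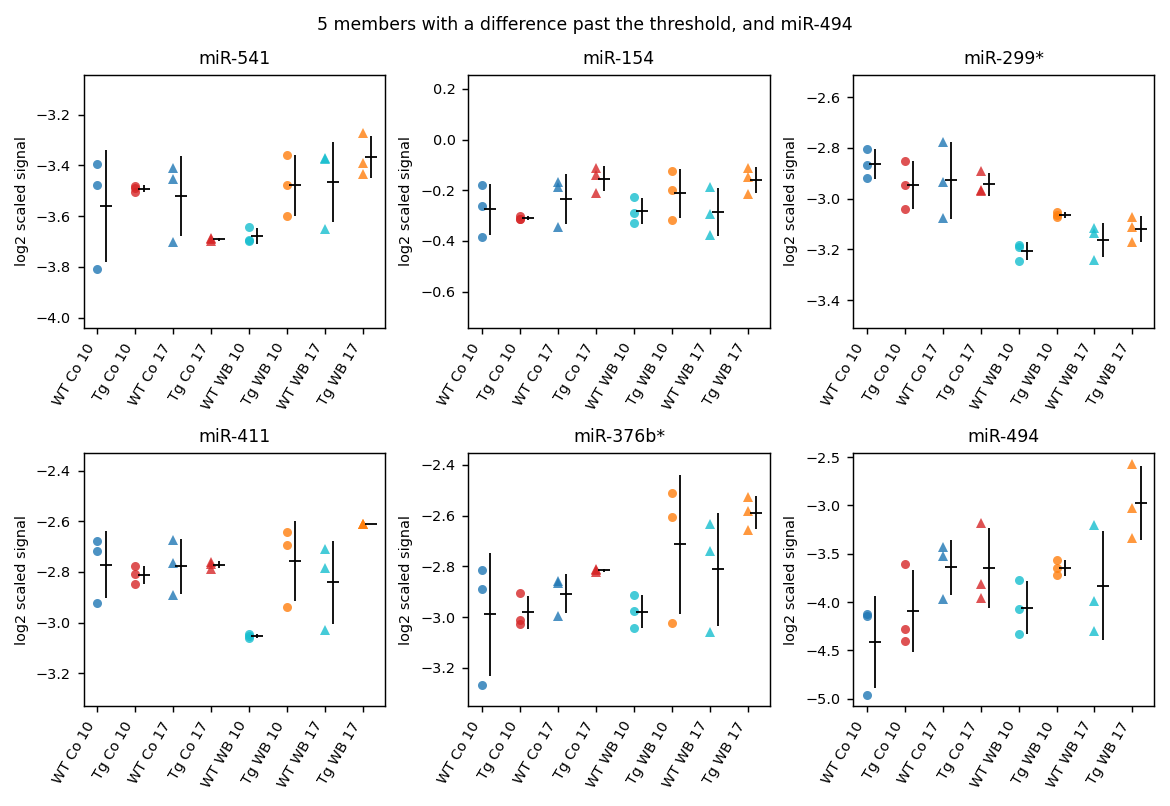
Level (vertical axis, log2 scaled signal) of the 5 members with a difference past the threshold in at least 1 comparison, and of miR-494, in the 8 groups (horizontal axis, Tg for Tg2576, Co for cortex, WB for whole brain, 10 and 17 for the age in months), 1 point per array, with the mean and SD of each group (n = 3). The groups behind a call, such as Tg Co 17 at -3.69 to -3.70 for miR-541, have arrays that lie close together beside those of other groups.

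The labelled tissues were checked with marker genes on the mRNA arrays. In 10-month-old WT mice the median difference, cortex minus whole brain, was -1.57 for 5 cerebellar genes and -2.44 for 4 hypothalamic genes, and none of these genes passed the threshold. In 17-month-old WT mice the medians were -1.86 and -1.25, again with none of these genes past the threshold. In 17-month-old Tg2576 mice, where 3 members differed, the medians were -0.57 and -0.999 in the same order, and 1 gene, the hypothalamic Agrp, was lower in cortex. In 10-month-old Tg2576 mice they were -1.24 and -1.83, with none past the threshold. In 17-month-old WT mice 1 midbrain, 2 oligodendrocyte, 1 neuronal and 1 astrocyte gene were lower in cortex (list medians -2.85, -0.30, -0.21 and -0.19). Other lists had higher medians in cortex, such as olfactory bulb in 10-month-old Tg2576 mice (1.22). For choroid plexus the median was 0.63 and -0.39 in WT and 0.50 and 0.61 in Tg2576 mice of 10 and 17 months. The summed hypothalamic level ranged from -1.74 to 4.42 within 10-month-old WT cortex and from 4.15 to 4.29 in 10-month-old WT whole brain. In each genotype and age, the highest hypothalamic level of cortex lay above all whole brain arrays of that genotype and age. The cerebellar level ranged from 0.92 to 3.96 within 17-month-old WT cortex and from 3.05 to 5.24 in 17-month-old WT whole brain. The cortex arrays thus differed in these markers and some lay within the range of whole brain or above it, and the part of this in the results on tissue was not tested. In such bulk RNA, fewer cells of a type and less RNA per cell cannot be told apart. The summed level of 4 neuronal genes lay between 7.78 and 8.38 in all groups, but not evenly. At 17 months it was higher in whole brain than in cortex in both genotypes. It was 8.24 to 8.38 beside 8.02 to 8.18 in Tg2576 mice, and 8.161 to 8.197 beside 7.777 to 8.159 in WT mice. The tissues overlapped at 10 months in both genotypes. The part of this in the results on tissue was not tested either. Among neuronal miRNAs, the range of the group means was 0.23 for miR-124 and 0.53 for miR-9, and among oligodendrocyte miRNAs 0.82 for miR-219-5p.

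On the mRNA arrays the measured host transcripts of the miRNAs varied little between groups. Levels there are the log2 of the processed signal minus the 75th percentile of the array. Meg3, the non-coding RNA at the head of the maternal transcripts, had group means of 6.57 to 6.80 and Mirg, which hosts the last stretch of miRNAs, of 3.58 to 3.99. Neither differed in any of the 12 comparisons by the brightest probe of the gene. Another of the 3 Meg3 probes fell by 0.32 with age in WT whole brain (SE 0.06, limma adjusted p = 0.014) and was higher in cortex than in whole brain of 17-month-old WT mice by 0.30 (SE 0.07, adjusted p = 0.043), so the probes of Meg3 disagreed there. Of all probes, 27.8% and 10.3% were called in these comparisons. In each of them the groups lay on different slides, so neither age nor tissue can be told apart from slide. No probe was assigned to Rian, and Rtl1 was well above background on 0 of 24 arrays.

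Dlk1, which encodes a transmembrane protein related to Notch ligands, varied most. In WT whole brain it was 0.76 ± 0.26 (SD, n = 3) at 10 months and 2.20 ± 0.28 at 17 months, a rise of 1.45 ± 0.19 (SE, limma adjusted p = 0.0061), or 2.73-fold. In Tg2576 whole brain it was 0.51 ± 0.41 at 10 months and 2.19 ± 0.35 at 17 months, a rise of 1.68 ± 0.26 (SE, limma adjusted p = 0.019), or 3.21-fold. The 2 ages did not overlap in either genotype, and the second Dlk1 probe also passed, with 1.44 (adjusted p = 0.0070) in WT and 1.54 (adjusted p = 0.038) in Tg2576 whole brain. The rise in Tg2576 whole brain missed the threshold without 10-month replicate 2 or 3 or without 17-month replicate 1 or 2 (rises of 1.48 to 1.68, limma adjusted p from 0.052 to 0.067). All 10-month arrays of WT whole brain lay on another slide than the 17-month arrays, so age and slide cannot be told apart there. In Tg2576 whole brain, where 1 of the 10-month arrays lay on another slide, the rise with the slide as a block was 1.89 (limma adjusted p = 0.039). These rises stood beside 27.8% of mRNA probes called with age in WT whole brain and 12.1% in Tg2576 whole brain.

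In the cortex Dlk1 was -1.04 ± 1.36 in WT and 0.26 ± 0.75 in Tg2576 mice at 10 months, and 1.06 ± 0.97 and 1.51 ± 0.67 at 17 months (SD, n = 3). The ages overlapped there, and the differences of 2.10 ± 0.78 (SE, limma adjusted p = 0.16) in WT and 1.25 ± 0.47 (adjusted p = 0.13) in Tg2576 cortex did not pass, beside 4.56% and 10.3% of probes called. The wide spread of Dlk1 between cortex arrays stood beside that of the hypothalamic markers, and was not tested against it. Dlk1 did not pass between genotypes in any tissue or age, where 0% of mRNA probes were called.

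Begain, which encodes a postsynaptic protein and lies at the edge of the domain, rose with age by 0.38 ± 0.08 in WT whole brain (limma adjusted p = 0.017), by 0.42 ± 0.08 in Tg2576 cortex (adjusted p = 0.035) and by 0.50 ± 0.11 in Tg2576 whole brain (adjusted p = 0.037). Age and slide cannot be told apart in WT whole brain and Tg2576 cortex, and with the slide as a block the rise in Tg2576 whole brain was 0.47 (limma adjusted p = 0.083). Without 1 array the rise stayed between 0.36 and 0.46 in Tg2576 cortex, where each of the 6 fits lost the call, between 0.42 and 0.59 in Tg2576 whole brain, where 5 lost it, and between 0.33 and 0.44 in WT whole brain, where it was lost without 17-month replicate 2 or 3. The neighbouring gene Dync1h1, outside the domain, rose in the same 3 comparisons, by 0.49, 0.51 and 0.54, and Wars in Tg2576 whole brain by 0.49. Dio3, which encodes the deiodinase that inactivates thyroid hormone, was higher in cortex than in whole brain of 17-month-old WT mice by 0.74 ± 0.17 (SE, limma adjusted p = 0.047), beside 10.3% of probes called, with levels from -3.01 to -2.76 in cortex and from -3.92 to -3.32 in whole brain, and its call was lost without any 1 of the 6 arrays (differences of 0.57 to 0.87, limma adjusted p from 0.077 to 0.11). No slide held arrays of both tissues, and with the slide as a random block the difference was 0.74 (adjusted p = 0.098). Dio3os, the non-coding RNA opposite Dio3, was detected on 21 arrays and passed in no comparison. Of the 6 genes of the domain tested, the number past the threshold was 0 in the 4 genotype comparisons, 0 in WT cortex, 2 in WT whole brain, 1 in Tg2576 cortex and 2 in Tg2576 whole brain with age, and 1 in 17-month-old WT mice and 0 in the other 3 comparisons between tissues (0.0101% of probes called in 10-month-old WT, 0% in 10-month-old Tg2576 and 1.97% in 17-month-old Tg2576 mice). With age, 4.56% of probes were called in WT cortex, 27.8% in WT whole brain, 10.3% in Tg2576 cortex and 12.1% in Tg2576 whole brain.

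**Figure D5:**
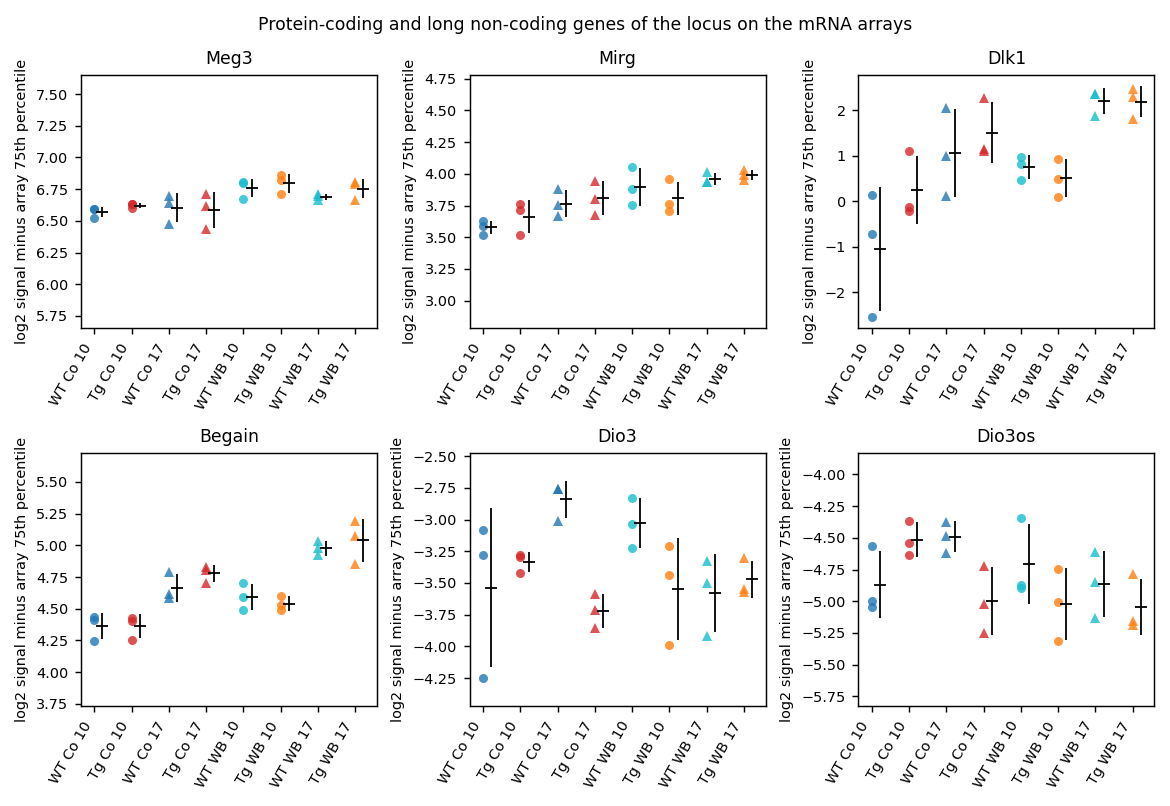
Level on the mRNA arrays (vertical axis, log2 signal minus the 75th percentile of the array) of 6 genes of the domain in the 8 groups (horizontal axis, Tg for Tg2576, Co for cortex, WB for whole brain, 10 and 17 for the age in months), 1 point per array, with the mean and SD of each group (n = 3). Meg3 and Mirg span 0.23 and 0.41 between group means, and Dlk1 rises with age in whole brain from 0.76 to 2.20 in WT mice and from 0.51 to 2.19 in Tg2576 mice.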

How the data were processed

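Total RNA of cortex or whole brain was hybridized to 1-colour Agilent miRNA and mRNA arrays designed on mouse build mm9, with 1 array per sample. The authors' scanner software, Agilent Feature Extraction (version 10.7.3.1), subtracted background, and the deposited intensity of each spot is not yet scaled between arrays. The authors also deposited log2 values per miRNA and per mRNA probe, used as an alternative. In R 4.3.3 with limma 3.58.1, outlier spots were left out and spots averaged. miRNA intensities were averaged over probes, divided by the 75th percentile over 402 probes well above background on all 24 arrays, floored at -5.67 and taken to log2. A miRNA was tested if detected on at least 2 of 3 arrays of a group. mRNA log2 intensities were reduced by the array's 75th percentile, with the brightest probe per gene. Tests were two-sided limma fits on the arrays compared, with Benjamini-Hochberg adjustment over all features at 0.05. A miRNA at the floor on all arrays compared was given a difference of 0. Such miRNAs, which have no spread, stayed in the fit from which limma estimates the variance shared by all miRNAs. The SEs were therefore little moderated, and small ones, as for miR-541 and miR-411, rest largely on the few arrays compared. Models were tested on simulated data. The members, gene lists and markers were chosen with earlier results of these data known. Named members are the 10 with the highest level, those past the threshold or, where none passed, the 2 with the lowest p, and those undetected in a group. Replicate numbers were not used to pair the samples, since no comparison had all 3 same-number correlations over 0.1. Some were high, such as 0.91 and 0.95 for miRNAs between the tissues in 17-month-old Tg2576 mice, where the remaining one was -0.25. Whether the numbers pair the samples is therefore not known. RefSeq positions are on GRCm38.p6, not the array's build. The alternatives were 4 other scalings or value sources, floor, filter, shared fit, omission of each array, a slide or replicate block, and the t-test of the study's methods. On an array, depth is signal over background, and the number of arrays limits the precision. Cortical marker genes are not reported here.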

Additional observations from a re-analysis of the deposited data

Results flagged for a closer look

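At 17 months, the Tg2576 arrays of miR-409-5p were all below the WT arrays in the cortex (difference -0.14 on the log2 scale) and higher on average in whole brain (0.17). WT cortex replicates 1 and 2 lay on another slide than the Tg2576 cortex arrays, so genotype and slide are only partly separable there. The difference between the tissues was -0.31 ± 0.10 (SE, limma interaction, unadjusted p = 0.016, adjusted p = 0.28), so it did not pass the threshold.

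For miR-411* at 17 months, every Tg2576 array lay below the WT arrays in the cortex (-0.098) and above them in whole brain (0.083). The whole brain difference turned negative with quantile normalization and in the authors' values, and the cortex difference turned positive with the scaling over all probes. Relative to the median of all miRNAs, the direction was kept in the authors' values and over all probes, but not with quantile normalization. The difference between the tissues was -0.18 ± 0.04 (SE, limma interaction, unadjusted p = 0.0025, adjusted p = 0.28), and it did not pass the threshold either. This interaction was added after seeing the data, and 0 of 52 members and 0% of all miRNAs passed it at 17 months, and 0 of 57 and 0% at 10 months, with 3 and 6 members at an unadjusted p under 0.05.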

How the results depend on the processing

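With 3 arrays per group, small differences were limited by signal over background and by the spread between arrays, and calls moved with the scaling. Some counts of members called in this section stand without the share of all miRNAs called in the same setting. Such a count does not show whether the members moved more than other miRNAs. Differences are log2. With the scaling taken over all probes, 23 members were called between genotypes in 17-month-old cortex (47.4% of all miRNAs called, median of all 0.45), 35 between tissues in 17-month-old Tg2576 mice (58.2%, median 0.55), 0 with age in Tg2576 cortex and 0 between tissues in 10-month-old WT mice. With normexp, 35 were called with age in WT cortex (66.5%, median 0.42), 36 between tissues in 17-month-old WT mice (67.5%, 0.44), 22 for genotype by age in cortex (53.3%, -0.39) and 35 for tissue by age in WT mice (66.5%, 0.50), and 0 in each of the 3 comparisons that had calls, as with quantile normalization. The authors' values gave 0 with age in Tg2576 cortex, 2 between tissues in 10-month-old WT mice and 0 in 17-month-old Tg2576 mice. In the order Tg2576 cortex age, WT tissue at 10 months and Tg2576 tissue at 17 months, a floor 4 times lower called 1, 2 and 6 (7.32%, 3.8% and 16.2% of all miRNAs), no filter 1, 0 and 1, the methods' t-test adjusted 1, 0 and 1, and unadjusted 6, 8 and 10 (24%, 14.2% and 22.3%). The Tg2576 tissue comparison at 17 months had 5 when only miRNAs detected on all arrays were tested, and 0 in one fit of all arrays, which called 1 with age in Tg2576 cortex and 3 between tissues in 17-month-old WT mice. A slide block called 1 for genotype in 10-month-old cortex, 1 with age in Tg2576 whole brain, 0 between tissues in 10-month-old WT mice and 3 in the test of any difference. The unadjusted methods' t-test called 1, 1, 8 and 2 for genotype, 3, 1 and 1 for age in WT cortex, WT whole brain and Tg2576 whole brain, and 3 and 1 between tissues in 17-month-old WT and 10-month-old Tg2576 mice. The median range of group means was 0.70 over all probes and 0.44 with normexp.

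Without 1 array, the members called ranged from 0 to 1, 0 to 1 and 0 to 10 for genotype in 10-month-old cortex, 17-month-old cortex and 10-month-old whole brain. For age they ranged from 0 to 6 in WT whole brain, 1 to 3 in Tg2576 cortex and 0 to 1 in Tg2576 whole brain. Between tissues they ranged from 0 to 2 in 10-month-old and 0 to 2 in 17-month-old WT mice and from 0 to 1 and 1 to 4 in Tg2576 mice. Arrays that gave calls where there were none were WT replicate 3 (10-month-old and 17-month-old cortex), Tg2576 whole brain replicate 1 at 10 months and WT whole brain replicate 2 at 17 months. Of the domain's genes, 1 to 2, 0 to 0 and 0 to 2 were called with age in WT whole brain, Tg2576 cortex and Tg2576 whole brain, and 0 to 1 between tissues in 17-month-old WT mice.

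With the replicate number as a block, 6 members were called with age in Tg2576 cortex, 0 between tissues in 10-month-old WT mice and 2 in 17-month-old Tg2576 mice. The block called 1 of the domain's genes with age in WT whole brain, 0 in Tg2576 cortex, 0 in Tg2576 whole brain and 0 between tissues in 17-month-old WT mice. Whether the numbers pair the samples is not known, so a call lost under the block is not read as a smaller difference.

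Of the domain's genes, one fit called 2 with age in WT cortex, 1 in WT whole brain, 1 and 2 between tissues in 10-month-old and 17-month-old WT mice. No filter called 1, 0 and 2, quantile normalization 2, 0 and 1 (WT whole brain age, Tg2576 cortex age, Tg2576 whole brain age), and both called 0 between tissues in 17-month-old WT mice. A slide block called 1 with age in Tg2576 whole brain and 0 between those tissues. The methods' t-test adjusted called 0 with age in Tg2576 cortex and whole brain and 0 between those tissues, and unadjusted 2 for genotype in 17-month-old cortex, 1 and 3 with age in WT and Tg2576 cortex and 3, 3 and 1 between tissues in WT mice of 10 and 17 months and 10-month-old Tg2576 mice.

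Single differences that changed sign were, over all probes, miR-541 with age in Tg2576 cortex (0.25), miR-376b* (0.45), miR-411 (0.52) and miR-541 (0.36) between tissues in 17-month-old Tg2576 mice, miR-411* for genotype in 17-month-old cortex (0.37) and miR-382 with age in Tg2576 whole brain (-0.015). With normexp they were the first 4 of these (0.011, 0.045, 0.081 and 0.11), miR-434-5p (0.059) and miR-379* (0.16) between tissues in 10-month-old Tg2576 mice, and for genotype miR-299* in 10-month-old whole brain (-0.044), miR-434-5p in 10-month-old cortex (0.060) and miR-382* in 17-month-old cortex (-0.092). For genotype, quantile normalization turned miR-411* (-0.00067) and miR-409-3p (-0.053) in 17-month-old whole brain, and the authors' values miR-411* there (-0.023) and miR-376a* in 10-month-old cortex (-0.15). Relative to the median of all miRNAs in the same setting, each of the 6 differences over all probes kept its direction (from -0.19 to -0.03, and 0.06 for miR-382), as did the first 4 with normexp (from -0.11 to -0.05), miR-434-5p (-0.09) and miR-382* (0.06) in cortex and the 2 in the authors' values (0.01 and 0.15). The other 5 did not, and the cause was not tested.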

Other observations

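A test of any difference among the 8 groups, added after seeing the data, called 46 of 372 mouse miRNAs (12.4%) and 2 of 57 members, miR-299* (limma F test, adjusted p = 0.0079) and miR-411 (adjusted p = 0.0495). With the slide as a block it called 22 miRNAs (5.91%) and 3 members, miR-370 (adjusted p = 0.0068), miR-411 (0.018) and miR-485 (0.046), and the adjusted p of miR-299* was 0.15.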
